A study of Ovis aries with 16 samples.

Results

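CXCL10, CXCL8 and MCP-3 were followed in the frontal cortex of 16 late-gestation fetal sheep, with 1 single-colour Agilent array per fetus. They were found by gene name among the 15008 probes of the array, and 5 probes matched: 1 for CXCL10, 2 for CXCL8 (which older annotations call IL8) and 2 for MCP-3. Of the fetuses, 9 had gone through hypoxia (5 without ketamine, called hypoxia control, and 4 with it, called hypoxia + ketamine) and the others had not (3 normoxia control and 4 normoxia + ketamine). Hypoxia was produced by passing nitrogen into the trachea of the ewe for 30 min, ketamine was given to the fetus intravenously at 3 mg/kg before the stimulus, and the brain was taken after 23.5 h of recovery, 24 h after the stimulus began. All fetuses, controls included, had been catheterized, and most were twins, but the labels do not say which fetuses shared a ewe, so p-values measure the spread between these fetuses only.

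For replicate 1 of hypoxia control GEO's labels do not match each other. The group used here is that of the title and the code, whereas the source name and the characteristics give normoxia + ketamine. The hypoxia control and normoxia control differences of CXCL10 and CXCL8 are also given below under the second reading and without this fetus. So are the CXCL8 differences between hypoxia + ketamine and hypoxia control. Unless stated, the other results follow the title. Between 69.2 and 76.9% of the spots on an array were well above background, and over all probes the correlation of 2 arrays lay between 0.984 and 0.996. Of the cell type markers looked for to check the tissue, GFAP (the astrocyte filament protein) and GRIN1 (a subunit of neuronal NMDA receptors) were well above background on all 16 arrays, GRIN1 being the 1 neuron marker of 14 listed that was on the array, and none of 7 listed oligodendrocyte markers was on the array. RNA came from whole tissue, so more cells of a type and more RNA per cell cannot be told apart.

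CXCL10 and CXCL8 are chemokines, small secreted proteins that guide white blood cells along a gradient. CXCL10 is induced by interferons, with IRF1 among the factors involved, and draws activated T cells and NK cells that carry the receptor CXCR3. CXCL8 is induced by IL-1, TNF and Toll-like receptor ligands through NF-kappaB and draws neutrophils through CXCR1 and CXCR2. In brain tissue both can be made by glia and by the endothelium of vessels. The abbreviation MCP-3 also stands for monocyte chemoattractant protein 3 (CCL7), a chemokine, but the files describe the gene on this array as mast cell proteinase-3, and the RefSeq table places it 5 genes from MCP1 and 4 from a second mast cell proteinase. It is therefore a granule serine protease of mast cells by its annotation. No probe of the array was named CCL7.

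Short stretches of the probes are shown because they tell what each value measures: which end of a transcript was read, where probes of a gene overlap, and which probe another gene shares. All are written 5′ to 3′ from the probe sequences of the files, and the capitals mark AATAAA, the letters of the common polyadenylation signal. The CXCL10 probe, A_70_P039366, was spotted 5 times on each array and starts at base 1047 of the transcript. The stretch shown runs from base 27 of the probe, as does that of the first MCP-3 probe, and the others are the last 30 bases of theirs.
CXCL10, A_70_P039366: aatgctttccaaAATAAAagtaatgttctc
CXCL8, A_70_P039662: ctggcctagtcttgcccttattatgcaatg
CXCL8, A_70_P039661: tcatgtgaatcctgagactatgtttcttaa
MCP-3, A_70_P012516: tgcctggaacttAATAAAcattcatctctt
MCP-3, A_70_P012517: tcagcataatgtgtccttgagatggacccc

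AATAAA was found in 2 of the 5 probes and in 5.63% of all 15008 probes as printed (9.14% when both strands were searched). It is a match of letters, and no use of the site was measured. The CXCL8 probe A_70_P039662 (the first probe below) starts at base 1163 of the transcript and A_70_P039661 (the second) at base 1203, and they share the 20 bases cttgcccttattatgcaatg, so they are not independent readings of CXCL8. The MCP-3 probe A_70_P012516 starts at base 857 and also matches the record of MCP1, and is called the shared probe below. The other, A_70_P012517, starts at base 773 and is called the own probe. No genome build is named in the files, so no coordinates are given.

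CXCL10 was the most increased of all 15008 probes in hypoxia control against normoxia control. Its normalized log2 level was 8.73, 9.51 and 7.77 in the 3 normoxia control fetuses, and 11.36, 14.79, 9.84, 15.93 and 12.11 in the 5 hypoxia control fetuses, in order of replicate number. Every hypoxia control fetus lay above every normoxia fetus, with or without ketamine, and replicates 4 and 2 were the highest. Under the second reading of the labels, replicate 1 at 11.36 would be a normoxia fetus above hypoxia control replicate 3 at 9.84. Against the mean of normoxia control, replicate 3 was 2.25-fold higher and replicate 4 was 153-fold higher. The group means were 12.81 ± 2.50 (SD, n = 5) and 8.67 ± 0.88 (SD, n = 3), a difference of 4.14 on the log2 scale (SE 1.41, 95% interval 1.12 to 7.15), or 17.6-fold. limma's moderated test gave an unadjusted P of 0.0106 and a Benjamini-Hochberg adjusted P of 0.488 over all probes. The two-sided exact permutation test gave p = 0.036, the smallest p that 5 against 3 fetuses allow (0.179 when adjusted over the 30 such tests made).

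The 5 CXCL10 spots of an array differed by an SD of 0.026 to 0.15, so the spread lay between fetuses and not between spots. The spot signal before correction ran from 102 units in hypoxia + ketamine replicate 1 to 55950 units in hypoxia control replicate 4, and the probe was well above background and unsaturated on all 16 arrays. Within hypoxia control the highest fetus was 67.9-fold above the lowest, and the SD within groups, 2.02, was at the 99.99th percentile of all probes.

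With ketamine before hypoxia, the CXCL10 level was 7.46, 13.56, 8.98 and 12.99 in the 4 fetuses. Replicates 2 and 4 were above every normoxia fetus, and replicates 1 and 3 were within the range of the normoxia fetuses or below it. The mean of 10.75 ± 2.99 (SD, n = 4) differed from hypoxia control by -2.06 (SE 1.30, 95% interval -4.83 to 0.71), which did not pass the test (limma's unadjusted P of 0.134, adjusted P of 0.654, two-sided exact permutation p = 0.302). The interval holds both no difference and a fall larger than the whole hypoxia difference, so these fetuses did not settle whether ketamine altered the CXCL10 level after hypoxia. In normoxia with ketamine the level was 9.07, 8.70, 8.24 and 7.59, inside the range of normoxia control except for the lowest, and differed from normoxia control by -0.27 (SE 1.48, unadjusted P of 0.856 and adjusted P of 1.00 by limma).

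In order of their mean CXCL10 level the groups ran hypoxia control, then hypoxia + ketamine, then normoxia control, then normoxia + ketamine, and no neighbours in that order differed beyond their spread, with exact permutation p-values of 0.302, 0.457 and 0.629. Hypoxia + ketamine exceeded normoxia + ketamine by 2.35 (SE 1.37, 95% interval -0.57 to 5.27, unadjusted P of 0.107 by limma). The interaction, the hypoxia difference under ketamine minus that without it, was -1.79 (SE 1.97, unadjusted P of 0.378 by limma). Within slide 1 the hypoxia control and normoxia control difference was 3.95 (unadjusted P of 0.0913 by limma) and within slide 2 it was 4.86 (0.0841), with no more than 3 fetuses of a group on a slide. It was 4.50 both without hypoxia control replicate 1 (unadjusted P of 0.00949 by limma) and with that fetus read as normoxia + ketamine (0.0105).

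**Figure D1:**
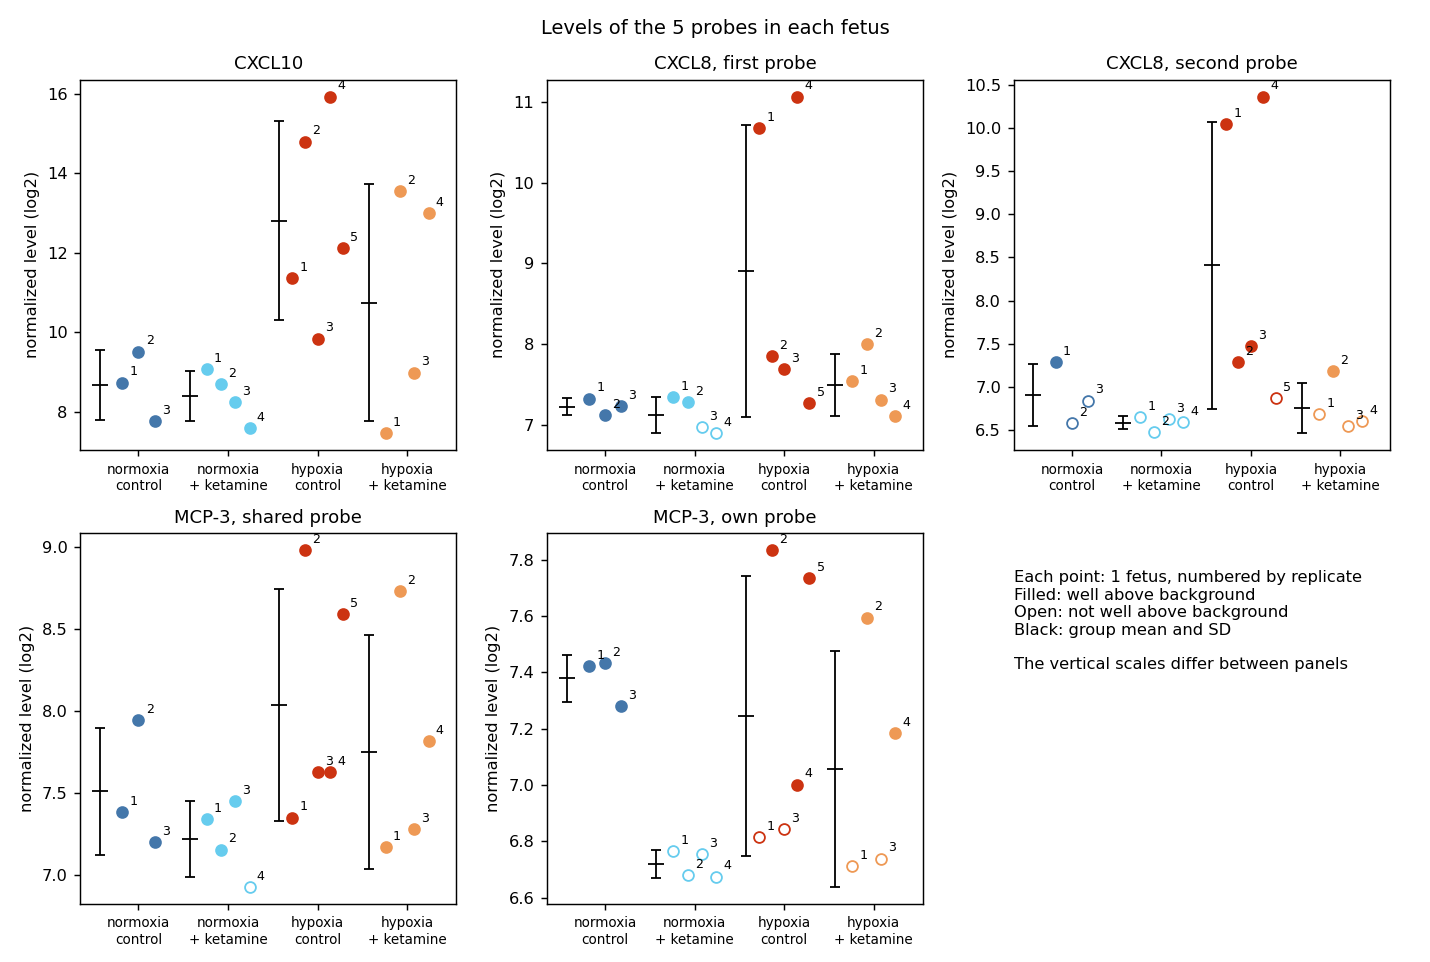
Normalized log2 level of the 5 probes (panels) in each fetus (points) of the 4 groups, numbered by replicate, with the group mean and SD in black and open points where the probe was not well above background. CXCL10 was above all normoxia fetuses in 5 of 5 hypoxia control fetuses, while CXCL8 was high in replicates 1 and 4 of that group.

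CXCL8 rose in hypoxia control too, but in fewer fetuses. For the first probe the level was 7.33, 7.12 and 7.24 in normoxia control, and 10.68, 7.85, 7.69, 11.07 and 7.27 in hypoxia control. Replicates 1 and 4 stood 10.9-fold and 14.3-fold above the normoxia control mean, replicates 2 and 3 stood 1.54-fold and 1.38-fold above it, and replicate 5 was within the normoxia range. The means were 8.91 ± 1.81 (SD, n = 5) and 7.23 ± 0.10 (SD, n = 3), a difference of 1.68 (SE 0.71, 95% interval 0.17 to 3.19), or 3.21-fold. It passed limma's test at an unadjusted P of 0.0315 (adjusted P of 0.589), the groups overlapped, and the two-sided exact permutation test gave p = 0.071.

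The second CXCL8 probe put the same 2 fetuses at the top. Its level was 7.29, 6.58 and 6.84 in normoxia control and 10.05, 7.29, 7.47, 10.37 and 6.87 after hypoxia without ketamine, a difference of 1.51 (SE 0.65, unadjusted P of 0.0355 and adjusted P of 0.604 by limma). It was well above background in 1 of 3 normoxia control fetuses, 0 of 4 normoxia + ketamine, 4 of 5 hypoxia control and 1 of 4 hypoxia + ketamine fetuses, so its lower values are near the limit of measurement. Hypoxia control was at least 2.83-fold higher than normoxia + ketamine, a bound because no array of the latter measured the probe well above background. The bound holds for the title's reading only, since replicate 1 of hypoxia control was at 10.05.

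Ketamine before hypoxia went with a lower CXCL8 level. The first probe was at 7.54, 8.00, 7.31 and 7.11 in the 4 hypoxia + ketamine fetuses, and the second at 6.69, 7.18, 6.54 and 6.60. None of these fetuses reached the level of hypoxia control replicates 1 and 4, and on the first probe all 4 lay between 7.11 and 8.00, where replicates 2, 3 and 5 of hypoxia control lay between 7.27 and 7.85. The difference from hypoxia control was -1.42 for the first probe (SE 0.65, 95% interval -2.81 to -0.03, unadjusted P of 0.0459 and adjusted P of 0.547 by limma) and -1.65 for the second (SE 0.60, unadjusted P of 0.0145 and adjusted P of 0.487). The two-sided exact permutation tests gave p = 0.206 and p = 0.032. Hypoxia + ketamine and normoxia + ketamine differed by 0.37 for the first probe (SE 0.685, unadjusted P of 0.600 by limma), and the interaction was -1.31 (SE 0.98, unadjusted P of 0.202 by limma) and -1.34 (0.161) for the 2 probes. A different response to hypoxia with and without ketamine was therefore not shown for CXCL8.

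For the first probe both differences rested on hypoxia control replicates 1 and 4, while the second kept its call between hypoxia + ketamine and hypoxia control without any 1 of the 16 arrays. Without replicate 1 the first probe differed by 1.24 between hypoxia control and normoxia control (unadjusted P of 0.0768 by limma) and by -0.98 between hypoxia + ketamine and hypoxia control (0.127). Without replicate 4 these values were 1.14 (0.0701) and -0.88 (0.126). With replicate 1 read as normoxia + ketamine they were 1.24 (0.185) and -0.98 (0.256). For the second probe the values without replicate 1 were 1.095 (0.0865) and -1.25 (0.0402), and with it read as normoxia + ketamine 1.095 (0.214) and -1.25 (0.132). Within slides 1 and 2 the first probe differed by 2.04 (unadjusted P of 0.044) and 1.44 (0.325) between hypoxia control and normoxia control, and by -1.49 (0.114) and -1.46 (0.216) between hypoxia + ketamine and hypoxia control. In normoxia the first probe was at 7.34, 7.28, 6.97 and 6.90 with ketamine, a difference of -0.10 from control (unadjusted P of 0.891 by limma).

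By their mean level on the first CXCL8 probe the groups ran in the same order as for CXCL10, with exact permutation p-values of 0.206, 0.400 and 0.514 between neighbours. On the second probe normoxia control came before hypoxia + ketamine, and neither that step nor the others passed the exact permutation test (p = 0.071, 0.457 and 0.343). Hypoxia control was highest on both probes.

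MCP-3 did not pass the test between hypoxia control and normoxia control on either probe. On the shared probe the level was 7.38, 7.95 and 7.20 in normoxia control and 7.34, 7.15, 7.45 and 6.93 in normoxia + ketamine. After hypoxia it was 7.35, 8.98, 7.62, 7.63 and 8.59 without ketamine and 7.17, 8.73, 7.28 and 7.82 with it. Replicates 2 and 5 of hypoxia control and replicate 2 of hypoxia + ketamine were above every normoxia fetus, and the rest overlapped with normoxia. The difference between hypoxia control and normoxia control was 0.53 (SE 0.38, 95% interval -0.30 to 1.35, unadjusted P of 0.192 by limma), and hypoxia + ketamine differed from hypoxia control by -0.28 (unadjusted P of 0.432). The interaction was 0.0074 (unadjusted P of 0.989 by limma). On the shared probe no neighbouring groups differed beyond their spread (exact permutation p-values of 0.524, 0.857 and 0.343).

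The own probe of MCP-3 was lower with ketamine in normoxia. Its level was 7.42, 7.43 and 7.28 in normoxia control and 6.77, 6.68, 6.76 and 6.67 in normoxia + ketamine, and the groups did not overlap. The probe was well above background in 3 of 3 and in 0 of 4 of these fetuses, so the normoxia + ketamine level is known only as at least 1.39-fold lower. The fitted difference was -0.66 (SE 0.25, 95% interval -1.19 to -0.12, unadjusted P of 0.0193 and adjusted P of 1.00 by limma), and the exact permutation test gave p = 0.057, the smallest that 4 against 3 fetuses allow. On the shared probe the same groups differed by -0.29 (unadjusted P of 0.478). Within slides 1 and 2 the own probe differed by -0.70 (unadjusted P of 0.116) and -0.57 (0.176), and without normoxia control replicate 2 by -0.63 (0.0507).

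In hypoxia the own probe was at 6.81, 7.83, 6.84, 7.00 and 7.73 without ketamine and at 6.71, 7.59, 6.74 and 7.18 with it. The fetuses highest on the shared probe were again the highest. Hypoxia control differed from normoxia control by -0.13 (unadjusted P of 0.587 by limma) and from hypoxia + ketamine by less than the spread within either group. The mean level ran normoxia control, then hypoxia control, then hypoxia + ketamine, then normoxia + ketamine, with exact permutation p-values of 0.607, 0.524 and 0.171 between neighbours.

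Set against all probes, 3 of the 5 were called higher in hypoxia control than in normoxia control at an unadjusted P under 0.05, where 3.34% of all probes were called higher and 4.64% lower. The 3 were CXCL10 and both CXCL8 probes. Of the 5, CXCL10 alone had groups that did not overlap, as 2.11% of all probes did in that direction. In hypoxia + ketamine against hypoxia control the 2 CXCL8 probes were called lower (3.56% of all probes lower, 5.49% higher), and 0 of 5 had groups that did not overlap (0.569% of all probes in that direction). In normoxia + ketamine against normoxia control 1 of 5 was called lower, the own probe of MCP-3 (1.43% of all probes lower, 0.88% higher), which is also the 1 of 5 without overlap (2.44% of all probes in that direction). In hypoxia + ketamine against normoxia + ketamine none of the 5 was called in limma's test (3.12% of all probes higher, 3.74% lower), nor was any for the interaction (6.35% of all probes in either direction). By limma 347 to 1359 probes of the array passed at an unadjusted P under 0.05 in these comparisons and 0 after Benjamini-Hochberg adjustment. These comparisons share their control groups, so their counts are not independent of each other.

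**Figure D2:**
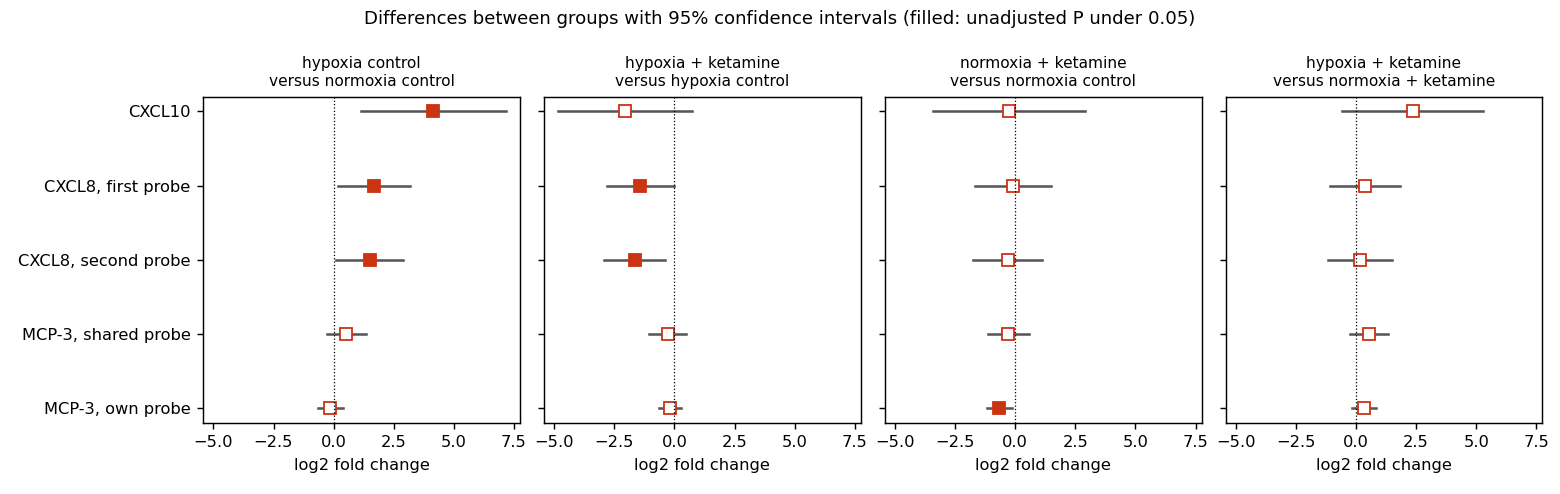
Difference in log2 level between groups for the 5 probes (rows; filled where the unadjusted P was under 0.05) with the 95% interval of limma's fit (bars), in 4 comparisons (panels). For CXCL10 the hypoxia control difference of 4.14 has an interval above 0, and the other comparisons have intervals that include it.

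The fetuses that were high were in part the same and in part different between genes. In hypoxia control, CXCL10 was highest in replicates 4 and 2, CXCL8 in replicates 4 and 1, and MCP-3 in replicates 2 and 5. Replicate 4 was thus near the top for both chemokines but not for MCP-3 (7.63 on the shared probe), and replicate 2, with a CXCL10 level of 14.79, had a CXCL8 level of 7.85. In hypoxia + ketamine, replicate 2 was the highest for CXCL10, CXCL8 and MCP-3.

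Over the 16 fetuses, CXCL10 and the shared MCP-3 probe correlated with Pearson's r = 0.73 (permutation p = 0.00231, adjusted p = 0.00385 over 5 relations) and Spearman's rho = 0.83 (permutation p = 0.00022). Without the 2 fetuses farthest from the median of CXCL10 r was 0.82, within slides 1 and 2 it was 0.90 and 0.59, and among the 9 hypoxia fetuses it was 0.62. CXCL10 and the first CXCL8 probe correlated with r = 0.58 (permutation p = 0.0199, adjusted p = 0.0249) and rho = 0.54 (permutation p = 0.0329). That relation fell to 0.35 without the 2 farthest fetuses, hypoxia control replicates 4 and 2, so it rested in part on this pair. Replicate 4 was high for both genes, while replicate 2 had a CXCL8 level of 7.85. Among the 9 hypoxia fetuses r was 0.42, and within slides 1 and 2 it was 0.34 and 0.76. CXCL8 and MCP-3 gave r = 0.04 (permutation p = 0.925) and rho = 0.27 (permutation p = 0.304). That relation had no stable sign: r was 0.59 without the 2 farthest fetuses, -0.26 among the 9 hypoxia fetuses, -0.04 and 0.10 within slides 1 and 2, and -0.41 with group means removed. The 2 CXCL8 probes correlated with r = 0.98 and the 2 MCP-3 probes with r = 0.85 (permutation p = 3e-05 and 8e-05), and rho was 0.74 and 0.86. All of these mix differences between groups with differences within them. With group means removed, r was 0.61 for CXCL10 and MCP-3 and 0.29 for CXCL10 and CXCL8.

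**Figure D3:**
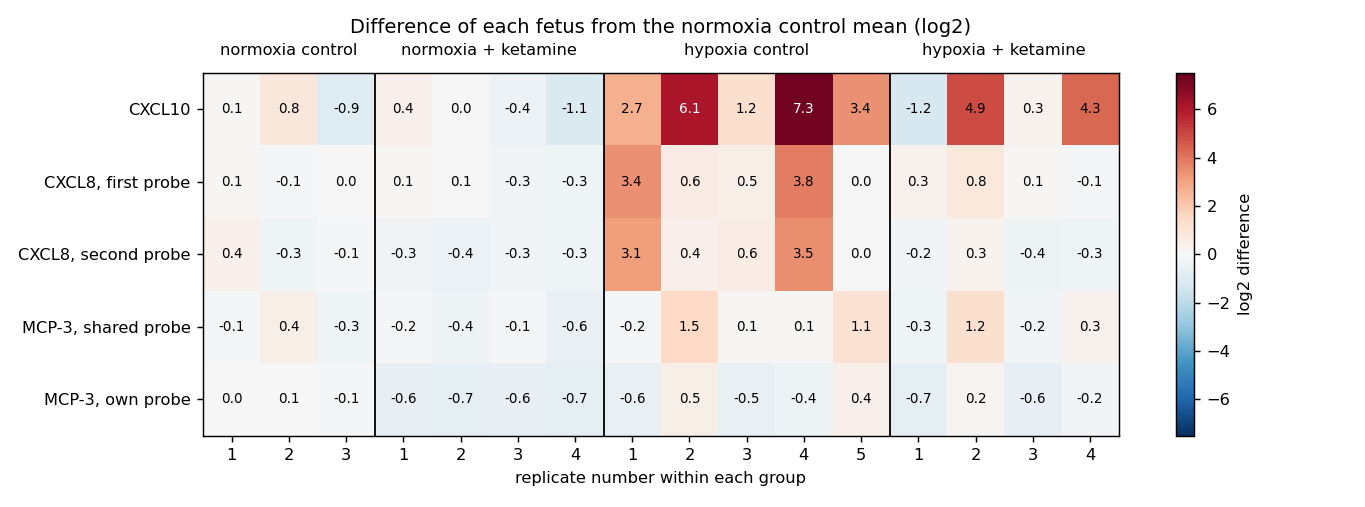
Difference in log2 level of each of the 16 fetuses (columns, by group and replicate) from the normoxia control mean, for the 5 probes (rows), with the value printed in each cell and shown as colour. In hypoxia control, CXCL10 was highest in replicates 4 and 2, CXCL8 in replicates 4 and 1, and MCP-3 in replicates 2 and 5.

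Among the named genes whose level ran most like CXCL10 over the 16 arrays were IRF1 (r = 0.97), PSMB8 (0.86), CD5 (0.84) and RTP4 (0.82), out of 716 genes searched. IRF1 is a transcription factor of the interferon response, PSMB8 is a subunit of the immunoproteasome, CD5 is a surface protein of T cells and RTP4 is an interferon-induced gene. With group means removed r was 0.95 for IRF1, 0.71 for PSMB8, 0.67 for CD5 and 0.70 for RTP4. Without the 2 fetuses farthest from the median of CXCL10 these values, with group means kept, were 0.94, 0.69, 0.70 and 0.62. After hypoxia IRF1 was at 9.05, 9.96, 8.22, 10.64 and 8.59 without ketamine, and at 7.31, 9.39, 7.67 and 8.86 with it. The same fetuses, replicates 4 and 2 of the former and 2 and 4 of the latter, were high for both genes. All 16 values of a gene share their array with the CXCL10 value, and no test was made of these relations.

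CXCL8 ran most like CCN1 (r = 0.95), IL1B (0.94), JUNB (0.90), SELP (0.89) and NFKBIA (0.86). CCN1 is a matrix-associated protein and JUNB a subunit of the AP-1 transcription factor, both quickly induced genes, IL1B is the cytokine IL-1 beta, SELP is P-selectin, which holds leukocytes on activated endothelium, and NFKBIA is the inhibitor of NF-kappaB that NF-kappaB itself induces. After hypoxia CCN1 was at 9.51, 8.33, 8.14, 10.07 and 7.54 without ketamine, and at 7.71, 8.10, 7.76 and 7.97 with it. Without the 2 fetuses farthest from the median of CXCL8 r was 0.60 for CCN1, 0.20 for IL1B, 0.61 for JUNB, 0.79 for SELP and 0.53 for NFKBIA, so hypoxia control replicates 1 and 4 carried much of the likeness. Among the genes most like the shared MCP-3 probe were lysozyme (LYZ, r = 0.80), the class I histocompatibility gene OVAR (0.78), the antiviral deaminase APOBEC3F (0.76) and beta-2-microglobulin (LOC443295, 0.74). Without the 2 fetuses farthest from the median of MCP-3 these values were 0.52, 0.49, 0.47 and 0.48. LYZ was well above background in 0 of 3 normoxia control, 2 of 4 normoxia + ketamine, 3 of 5 hypoxia control and 3 of 4 hypoxia + ketamine fetuses.

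**Figure D4:**
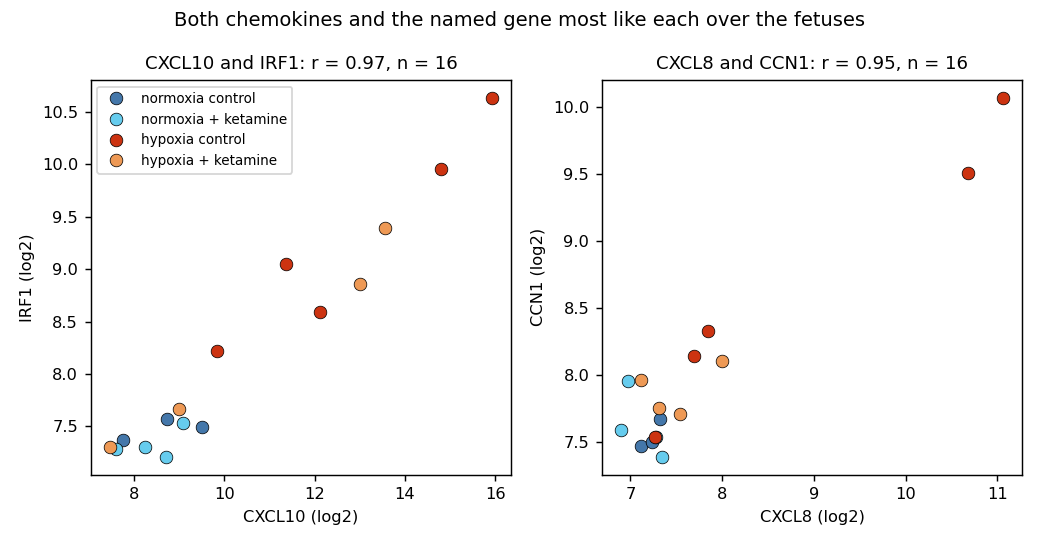
Normalized log2 level of CXCL10 and of CXCL8 (first probe) against that of the gene most like each, with 1 point per fetus coloured by group. The points of CXCL10 and IRF1 (r = 0.97) are spread along the whole range, while for CXCL8 and CCN1 (r = 0.95) 2 hypoxia control fetuses lie apart from the rest.

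Few other chemokines could be read. Of 39 other ligands listed, CXCL1, CCL25, CCL28 and XCL1 were on the array. CXCL1, a neutrophil chemokine that the files name GRO, was saturated on all 16 arrays and gives no fold. CCL28 was well above background on 0 of 16 arrays and gives no fold either, although limma called its values higher in hypoxia control and in normoxia + ketamine than in normoxia control and lower for the interaction, and CCL25 and XCL1 were not called in any comparison. With 2 of the 4 ligands outside the measurable range, no median is given for the list. Of 22 receptors listed, CXCR4, CCR3, CCR9 and CCR10 were on the array. CCR9 was well above background on 0 of 16 arrays, and none of the other 3 was called by limma between hypoxia control and normoxia control. CXCR4, the receptor of CXCL12, differed by -0.36 (unadjusted P of 0.0691 by limma). In hypoxia + ketamine against hypoxia control CCR10 was called higher by 0.20 (unadjusted P of 0.0489). No probe was named CXCR1, CXCR2 or CXCR3.

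Genes of the pathways known to induce CXCL10 and CXCL8 were also called higher in hypoxia control. Over the 986 named genes 60 were higher and 42 lower, with a median difference of 0.0051, and the lists are short and were not tested as lists. Of 6 interferon signalling genes, 2 were higher, among them IRF1 (by 1.81, SE 0.50, unadjusted P of 0.00276, without overlap), with a median of 0.19. Of 4 interferon-stimulated genes 1 was higher (PSMB8, by 1.22), with a median of 1.19 that counts ISG15, saturated on 1 array. Of 6 genes of the NF-kappaB pathway 4 were higher, with a median of 0.43: NFKBIA by 1.33 (unadjusted P of 0.00193) and the receptor TLR2 by 0.55 (0.00228), both without overlap, and TLR4 by 0.32 and its co-receptor CD14 by 0.95. Of 8 inducing cytokines and their receptors 2 were higher, TNF by 0.51 and IL1RN, with a median of 0.23. IL1RN is the IL-1 receptor antagonist and so not itself an inducer, and it was well above background on 2 arrays, so no size is given. TLR4, CD14, TNF and IL1RN are named here after their values were seen.

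In hypoxia + ketamine against hypoxia control, 34 of 986 named genes were higher and 67 lower. The 4 NF-kappaB pathway genes named above were called lower (NFKBIA by a difference of -0.81, TLR2 of -0.44, TLR4 of -0.27 and CD14 of -0.60), all with groups that overlapped, and the median of the 6 was -0.37. Of the 4 interferon-stimulated genes ISG15 was called lower (saturated on 1 array, so no size is given), of 8 inducing cytokines and receptors TNFRSF1A was called lower (-0.14), and 0 of 6 interferon signalling genes were called (median -0.19). The median over all named genes was -0.0024. In normoxia + ketamine against normoxia control CCL28 was the 1 call among the pathway lists, in hypoxia + ketamine against normoxia + ketamine there was none, and for the interaction CCL28 and CD14 (-0.74) were called. ISG15, TNFRSF1A and CD14 are likewise named after their values were seen. Of the 16 list genes, cell type markers included, that were called between hypoxia control and normoxia control, 15 stayed called without replicate 1 of hypoxia control and 15 with it read as normoxia + ketamine, the exception being KIT. Of the 11 called between hypoxia + ketamine and hypoxia control, 9 and 8 stayed called. NFKBIA (-0.62, unadjusted P of 0.0677 and 0.182 by limma) and KIT were lost in both, and SELP (-1.57, 0.0717) with the second reading. These readings of the lists were added after seeing the data.

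Markers of other cells moved with the members in part. The mean log2 level of the 5 neutrophil markers on the array was 7.89 to 8.20 without and 7.77 to 7.92 with ketamine in normoxia, and 7.86 to 9.24 without and 7.98 to 9.00 with ketamine after hypoxia, with MMP9 above background on 0 arrays. Of the 5, 0 were called by limma between hypoxia control and normoxia control and 1 was called higher in hypoxia + ketamine than in normoxia + ketamine (CATHL1, by 2.46). The mean correlated with MCP-3 at r = 0.70, with CXCL10 at r = 0.57 and with CXCL8 at r = -0.05. In these marker correlations MCP-3 is the shared probe, which also matches MCP1. Of 5 endothelial markers, SELP (by 2.54) and ICAM1 (by 1.14) were called higher in hypoxia control and lower in hypoxia + ketamine than in hypoxia control (differences of -1.74 and -0.94). The other 3 were lower in hypoxia control than in normoxia control without being called, and the median of the 5 was -0.071. SELE was above background on 0 arrays, and the mean of the 5 correlated with CXCL8 at r = 0.90 and with CXCL10 at 0.70. SELP is also among the genes picked above for their likeness to CXCL8, so the r with CXCL8 does not stand apart from that choice. The mean of the 2 microglia and macrophage markers, ITGAM and LYZ, correlated with MCP-3 at r = 0.80 and with CXCL10 at 0.45. LYZ is also among the genes picked above for their likeness to MCP-3, so the first r does not stand apart from that choice. The mean of these markers ran from 6.81 to 7.02 without and 6.84 to 7.23 with ketamine in normoxia. After hypoxia it ran from 6.89 to 7.81 without and 7.00 to 7.99 with ketamine. At most 1 of the 2 markers was well above background on any array after hypoxia. In hypoxia control against normoxia control 1 was higher and 1 lower, so their mean does not show a shared change. Of 4 T and NK cell markers 0 were called and CD4 was above background on 0 arrays. Their mean correlated with CXCL10 at r = 0.14, with CXCL8 at -0.24 and with MCP-3 at 0.16. Of 4 astrocyte markers 1, GFAP, was called higher in hypoxia control (by 0.79, unadjusted P of 0.000254 by limma, without overlap), and lower in hypoxia + ketamine than in hypoxia control (a difference of -0.54, P of 0.00269) and for the interaction (-0.70, P of 0.00765). The mean of the 4 was 10.03 to 10.21 without and 10.06 to 10.24 with ketamine in normoxia, and 10.17 to 10.502 without and 10.05 to 10.37 with ketamine after hypoxia, and it correlated with CXCL8 at r = 0.29 and with CXCL10 at 0.15. GRIN1 was called lower in hypoxia + ketamine than in normoxia + ketamine (a difference of -0.63, P of 0.00386, without overlap) and for the interaction (-0.63, P of 0.0326). The part of these cells in the results was not tested, and GFAP, GRIN1 and CATHL1 are named after their values were seen.

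Of 6 other mast cell genes on the array (14 were listed, after the annotation of MCP-3 had been read), the mean level was 7.25 to 7.38 without and 7.25 to 7.35 with ketamine in normoxia, and 7.26 to 7.64 without and 7.30 to 7.43 with ketamine after hypoxia. FCER1G, a receptor chain that other myeloid cells also carry, was called higher by 0.50 in hypoxia control than in normoxia control. KIT was called lower in that comparison and higher in hypoxia + ketamine than in hypoxia control. No size is given for KIT because it was never well above background. KIT and MS4A2 were above background on 0 arrays, MCP-4 and FCER1A on 1, and TRYPTASE-1 on 13. The mean of the 6 correlated with the shared MCP-3 probe at r = 0.74, with CXCL10 at 0.59 and with CXCL8 at -0.02. TTR, the transthyretin gene that choroid plexus expresses strongly, was called lower in hypoxia control, with groups that overlapped, 1 array saturated and another not well above background, so that no size is given. Of the 4 choroid plexus markers 2 were higher and 2 lower in hypoxia control than in normoxia control (median 0.041), with TTR the 1 call. The mean of the 4 correlated with CXCL10 at r = -0.21 and with CXCL8 at -0.34. The part of mast cells and choroid plexus in the results was not tested, and ICAM1, FCER1G, KIT and TTR are named after their values were seen.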

How the data were processed

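Cortical RNA was labelled by the authors with cyanine 3 for sheep arrays of Agilent's single-colour design, and spots were extracted with Feature Extraction (10.1.1.1 in the file headers, where the paper gives another version). The deposited scanner files hold the intensity of each spot, before normalization between arrays. A second deposited table holds the authors' log2 values, which they had background corrected and quantile normalized with limma in R 2.15.1, and it served only as an alternative.

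Here the mean signal was corrected with limma 3.58.1 in R 4.3.3 (normexp on the median local background, offset 50), the 536 control spots of 15744 were left out, 222 outlier spots were set to missing, arrays were quantile normalized, and spots of a probe were averaged (15008 probes, 132 missing on at least 1 array). A linear model of the 4 groups with empirical Bayes gave all comparisons. A call is an unadjusted P under 0.05, as the study's methods have it, and adjusted P is Benjamini-Hochberg over all probes. Exact permutation tests were two-sided (scipy 1.17.1, Python 3.11.15), and correlations had 100000 permutations. A probe counts as well above background by the scanner software's own flag. A bound ("at least") sets the brighter group's mean against the dimmer one's, each dim array taken at no less than the lowest signal well above background on it.

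The members and the gene lists were chosen with earlier results of these data known. The mast cell list was added after the annotation of MCP-3 was read, and older names in the lists that matched mast cell proteinases were dropped. Named genes are the members, the listed ligands and receptors on the array, list genes called without overlap (at most 6 per list and comparison), and the 5 genes most like each member among named genes well above background on at least 8 arrays. A gene these rules also name is not reported here. The probe with the highest mean stood for a gene, and for a member in correlations. Through the RefSeq sheep table (assembly ARS-UI_Ramb_v3.0) names came from the accession for 726 probes, from the symbol for 498, from an older symbol for 20, from the gene ID for 125 and from the symbol read in capitals for 13. The files' own name was kept for 211, and 13415 had none. On simulated data for hypoxia control against normoxia control (14876 probes, 200 changed), 97% of probes changed by 1 and 99% of those changed by 2 on the log2 scale were called, and 5.56% of unchanged probes. The changed probes were drawn at random from all probes. The SD within groups of the member probes was at the 94.2 to 99.99th percentile, so these shares do not hold for them. The number of arrays limits the precision. Alternatives were other background corrections and scalings, a filter on dim probes, slide or replicate number as a block, fits within slides or of the compared groups, the authors' values, the second reading of hypoxia control replicate 1, array weights, and each array left out.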

Additional observations from a re-analysis of the deposited data

How the results depend on the processing

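The number of the 5 probes called between hypoxia control and normoxia control (3) was 1 with normexp scaled to the 75th percentile, within slide 1, with no groups but the compared pair fitted and with hypoxia control replicate 1 read as normoxia + ketamine, 0 within slide 2, and 1 to 3 with an array left out (1 without normoxia control replicate 2 or 3 or hypoxia control replicate 1 or 4). The number called between hypoxia + ketamine and hypoxia control (2) was 1 with the processed signal quantile normalized, with the authors' values and with the filter on dim probes, 0 with the 75th percentile, within slide 1, within slide 2, with only the groups compared and with the other label, and 1 to 3 with an array left out. The 1 call between normoxia + ketamine and normoxia control was 0 with the 75th percentile, within slide 1 and within slide 2, and 0 to 1 with an array left out (0 without normoxia control replicate 2), and the 0 calls between hypoxia + ketamine and normoxia + ketamine became 1 without hypoxia + ketamine replicate 1 (0 to 1).

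CXCL10 between hypoxia control and normoxia control (4.14) passed the threshold in all settings but within slide 1 (3.95) and within slide 2 (4.86). Between hypoxia + ketamine and hypoxia control it ran from -2.99 to -0.96 with an array left out, and passed without hypoxia control replicate 3 (-2.80, unadjusted P of 0.0446 by limma) and without hypoxia + ketamine replicate 2 (-2.99, 0.0395). The first CXCL8 probe between hypoxia control and normoxia control (1.68) missed the threshold with the 75th percentile (1.54), within slide 2 (1.44), with only the groups compared (1.68) and with the other label (1.24), and ran from 1.14 to 2.09 with an array left out. Between hypoxia + ketamine and hypoxia control (-1.42) it missed the threshold with the processed signal (-2.03), the 75th percentile (-1.23), the authors' values (-1.35), slide 1 (-1.49), slide 2 (-1.46), only the groups compared (-1.42) and the other label (-0.98), and without 12 of 16 arrays (-1.83 to -0.88 with an array left out).

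Signs turned only for differences that had not been called. In normoxia + ketamine against normoxia control, CXCL10 was 0.15 within slide 2, 0.32 with the other label and -0.72 to 0.15 with an array left out, the first CXCL8 probe was 0.091 within slide 1 and 0.61 with the other label, and the second was 0.37 with the other label. In hypoxia + ketamine against normoxia + ketamine, the second CXCL8 probe was -0.032 within slide 2 and -0.52 with the other label, and the first was -0.34 with the other label. In hypoxia + ketamine against hypoxia control, MCP-3 was 0.19 (shared probe) and 0.34 (own probe) with the 75th percentile. The interaction for the shared MCP-3 probe (0.0074) was -0.046 with the median spot signal, -0.056 with the authors' values, -0.064 with the slide as a block, -0.39 within slide 2, -0.19 with the other label, -0.090 with array weights, and -0.32 to 0.24 with an array left out. The cause of these changes was not tested.

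The 75th percentile scaling moved the median of all probes between hypoxia control and normoxia control to -0.16. Same-numbered fetuses of different groups correlated at -0.11 to 0.37 in their deviations from the group means (median 0.044, 21 pairs). Differently numbered ones correlated at -0.30 to 0.20 (median -0.022, 74 pairs). Whether the numbers pair the fetuses was not tested. With the replicate block CXCL10 differed by 3.82 between hypoxia control and normoxia control and the first CXCL8 probe by 1.97, and the counts of calls were 3, 2, 1, 0 and 0, as without it. Levels near background bound the second CXCL8 probe and the own MCP-3 probe.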
